A study of Mus musculus with 12 samples.

Results

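Interferon-stimulated effector genes are the genes that cells switch on after an interferon binds its receptor, and most of their products act directly on viral RNA, viral proteins or the membranes and nucleotides that viruses use. Type I and type III interferon receptors signal through JAK1 and TYK2 to a transcription factor complex that contains IRF9 and binds the interferon-stimulated response element (ISRE), while interferon gamma acts mainly through the gamma-activated site (GAS). Dendritic cells, which carry captured antigen to T cells, express many of these genes in unchallenged animals at a low tonic level. The 38 genes described here were chosen from their known roles as antiviral effectors, not by a threshold in these arrays, although earlier results of the arrays were known when the list was drawn up. They comprise RNA sensors, binders and editors (Ifit1, Ifit2, Ifit3, Oas2, Oas3, Oasl1, Oasl2, Eif2ak2, Ddx60, Adar), ISG15 and its enzymes with ubiquitin ligases (Isg15, Usp18, Herc6, Trim25, Trim30a), the ADP-ribosylation group (Parp9, Dtx3l, Parp12, Parp14), GTPases (Mx1, Mx2, Gbp2, Gbp3), membrane and secreted factors (Bst2, Ifitm3, Lgals3bp, Rtp4), nucleotide and RNA-degrading enzymes (Rsad2, Cmpk2, Isg20), the IFI200 family (Ifi203, Ifi205, Ifi206) and other effectors (Ifi44, Ifi35, Samd9l, Xaf1, Sp100). Of the 38, 35 were measured, among 19938 genes with a probe set of a single symbol. Isg15 and Gbp2 were not measured because the probe sets that name them also name Gm9706 and Gbp2b, and no probe set was listed for Ifi44.

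The arrays held RNA of type 1 conventional dendritic cells (cDC1) sorted from naive C57BL/6 mice, with 3 arrays in each of 4 groups. These were skin-draining lymph node (SDLN) cells of Xcr1Cre/+ CD40 fl/fl mice, SDLN cells of Xcr1+/+ CD40 fl/fl mice, spleen (SPL) cells of Xcr1Cre/+ CD40 fl/fl mice and SPL cells of Xcr1+/+ CD40 fl/fl mice, called below by the labels' Xcr1Cre+ and Xcr1++. Every group carried the floxed CD40 alleles, and the Xcr1Cre+ groups carried in addition an Xcr1-driven Cre meant to remove CD40 in cDC1, so the Cre allele itself and the loss of CD40 cannot be told apart among these groups. SDLN cells were sorted as migratory cDC1 (B220-, MHC II high, CD11c intermediate, XCR1+, Sirpa-) and SPL cells with the same gates at high CD11c. The age of the animals, and whether the 3 arrays of a group came from separate animals, were not given in the sources used here, so every p-value below measures the spread between these arrays.

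Cd40, the targeted gene, went against the labels in the arrays numbered 3. In the lymph node it had intensities of 1427, 1388 and 3358 on the arrays labelled Xcr1Cre+ and 2138, 2777 and 1542 on those labelled Xcr1++. In spleen it had 365, 214 and 569 on the arrays labelled Xcr1Cre+ and 572, 525 and 309 on those labelled Xcr1++. The ratio of the same-numbered arrays was 0.668, 0.500 and 2.18 in the lymph node and 0.638, 0.407 and 1.84 in spleen, so both arrays labelled Xcr1Cre+ with the number 3 held more Cd40 than their Xcr1++ partners. A two-sided exact permutation test gave p = 0.8 in the lymph node and 0.6 in spleen, but with 3 arrays against 3 it cannot go below 0.1 and so could not pass 0.05. The position of the Cd40 probes relative to the floxed exons was not given, and all genotype results below compare the arrays as labelled. Whether the labels of the arrays numbered 3 are exchanged was not tested. If they were, each genotype difference of that pair would change sign.

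The sorted populations were checked against markers. Higher and lower here mean called by limma (adjusted p under 0.05) between SDLN and SPL arrays, averaged over the genotype labels. Of all genes, 18.6% were called higher and 18.3% lower in that comparison. The lists were not tested as lists. Of 15 genes of cDC1 identity, 3 were higher and 11 lower in SDLN than in SPL cells: Xcr1 averaged 242 and 251 on SDLN Xcr1Cre+ and Xcr1++ arrays, against 2913 and 3250 on the matching SPL arrays. Of 19 genes of migratory maturation, 16 were higher and 2 lower, with Ccr7 at 8446 in each SDLN group, against 3055 and 3594 in SPL. Of 8 T cell markers, 7 were higher and 1 lower in SDLN. The summed intensity of the 8 was 2257 to 2966 on SDLN arrays, against 868 to 1071 on SPL arrays, with Cd3e at 182 and 189 against 106 and 123. Of 12 macrophage and monocyte markers, 1 was higher and 4 lower in SDLN, with sums of 1203 to 1424 against 2756 to 4521. The plasmacytoid dendritic cell markers, a cell type known for making interferon, gave 3 higher and 2 lower of 8, with Siglech averaging 70.0 and 75.3 in SDLN and 63.0 and 64.1 in SPL. Bst2, among the higher ones, is also a member described here, so this list is not independent of the members. Tlr3 and Irf8, counted as cDC1 identity genes, are likewise among the upstream interferon genes listed below. Of 8 Langerhans cell and keratinocyte markers, 5 were higher and 1 lower, with sums of 634 to 854 in SDLN and 601 to 906 in SPL. Stromal and endothelial markers, with 0 higher and 1 lower of 8, summed to 475 to 600 in SDLN and 817 to 951 in SPL. B cell markers, with 1 higher and 1 lower of 9, summed to 386 to 517 in SDLN and 560 to 663 in SPL. Markers of type 2 conventional dendritic cells gave 3 higher and 4 lower of 9. NK cell markers gave 0 higher and 2 lower of 8, neutrophil markers 1 and 0 of 8, and erythroid markers 0 and 1 of 4. None of the marker lists had a gene called between genotype labels. The part of these other cells in the tissue differences below was not tested.

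Promoters of 7 genes are shown because the tissue and genotype results turn on them or their family. They come from RefSeq (assembly GRCm38.p6), run 5′ to 3′ on the gene's strand from 250 bases before the transcription start to 50 bases from it, and capitals mark each match to the ISRE letters GAAANNGAAA on either strand (TTTCNNTTTC on the other). Ifit1 and Rsad2 were among the members higher in SDLN cells. Ifi205 and Ifitm3 had the largest decreases there. Ifi203 had the largest value between genotype labels. Herc6, the largest increase, which holds no match, and Ifi206, a relative of Ifi203, were added after their values were seen.
Ifit1, chr19:34640639-34640938, + strand: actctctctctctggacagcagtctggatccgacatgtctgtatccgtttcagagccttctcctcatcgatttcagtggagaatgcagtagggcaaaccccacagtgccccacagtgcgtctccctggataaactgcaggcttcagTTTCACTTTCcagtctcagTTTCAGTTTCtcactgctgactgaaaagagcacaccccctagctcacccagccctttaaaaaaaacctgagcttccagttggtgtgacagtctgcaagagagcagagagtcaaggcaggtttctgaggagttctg
Rsad2, chr12:26456403-26456702, - strand: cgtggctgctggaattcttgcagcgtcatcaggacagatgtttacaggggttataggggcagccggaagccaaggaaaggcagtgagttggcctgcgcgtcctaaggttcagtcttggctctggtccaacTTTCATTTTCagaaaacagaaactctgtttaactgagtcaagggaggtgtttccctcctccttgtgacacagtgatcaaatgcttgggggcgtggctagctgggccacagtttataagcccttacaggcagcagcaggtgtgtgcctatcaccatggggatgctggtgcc
Herc6, chr6:57580742-57581041, + strand: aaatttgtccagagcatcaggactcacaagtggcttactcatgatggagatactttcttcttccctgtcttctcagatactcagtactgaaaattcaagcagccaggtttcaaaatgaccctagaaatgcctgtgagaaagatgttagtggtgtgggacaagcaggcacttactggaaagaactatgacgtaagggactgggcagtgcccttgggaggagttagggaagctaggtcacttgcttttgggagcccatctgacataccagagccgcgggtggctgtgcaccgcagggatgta
Ifi205, chr1:174031706-174032005, - strand: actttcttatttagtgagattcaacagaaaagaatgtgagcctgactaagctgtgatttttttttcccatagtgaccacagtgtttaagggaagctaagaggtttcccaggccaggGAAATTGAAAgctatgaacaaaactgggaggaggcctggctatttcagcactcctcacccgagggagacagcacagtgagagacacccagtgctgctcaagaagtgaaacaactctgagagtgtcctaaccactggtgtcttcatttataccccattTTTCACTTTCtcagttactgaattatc
Ifitm3, chr7:141010695-141010994, - strand: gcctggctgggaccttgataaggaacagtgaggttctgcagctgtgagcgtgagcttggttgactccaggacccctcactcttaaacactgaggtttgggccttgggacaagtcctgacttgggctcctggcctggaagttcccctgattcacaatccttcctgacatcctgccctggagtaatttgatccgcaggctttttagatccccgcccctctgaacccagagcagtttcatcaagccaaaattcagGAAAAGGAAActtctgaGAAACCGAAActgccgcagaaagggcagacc
Ifi203, chr1:173942443-173942742, - strand: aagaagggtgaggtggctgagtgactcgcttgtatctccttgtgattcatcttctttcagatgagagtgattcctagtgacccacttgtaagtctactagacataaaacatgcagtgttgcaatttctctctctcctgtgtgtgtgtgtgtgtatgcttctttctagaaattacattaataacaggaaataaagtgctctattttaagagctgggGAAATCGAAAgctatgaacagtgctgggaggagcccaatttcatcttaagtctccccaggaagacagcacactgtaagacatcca
Ifi206, chr1:173491269-173491568, - strand: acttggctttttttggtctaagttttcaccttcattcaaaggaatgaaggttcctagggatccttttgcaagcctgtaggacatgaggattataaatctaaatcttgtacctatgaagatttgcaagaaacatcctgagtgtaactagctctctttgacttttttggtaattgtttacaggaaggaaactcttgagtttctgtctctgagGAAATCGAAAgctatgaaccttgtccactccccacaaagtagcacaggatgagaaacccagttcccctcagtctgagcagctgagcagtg
The Ifit1 promoter holds a pair of ISRE matches, the first bases of which lie 104 and 85 bases before the start, and that of Rsad2 holds 1 at 120 bases before it. In Ifi205 the matches begin 134 bases before the start and at base 24 after it, and both matches of Ifitm3 fall after the start, at bases 3 and 20. RefSeq lists 2 starts for Ifi203, and the promoter of the other, chr1:173942623-173942922, holds no match. The matches of the Ifi203 promoter shown and of Ifi206 lie 35 and 40 bases before the start, inside a run of 20 bases that the 2 promoters share, ggaaatcgaaagctatgaac. Ifi205 shares with Ifi203 a run of 14 bases, gaaagctatgaaca, that starts with the second GAAA of its first match. The base just before the run differs, at an any-base position of the ISRE letters, so the matches read GAAATTGAAA and GAAATCGAAA. Among the 31 members with a promoter in the table, 15 (48.4%) held an ISRE match, against 1079 of 27025 genes (3.99%). The match was found in 6 of 11 members that were higher in SDLN cells, in 4 of 11 that were lower and in 3 of 6 that were not called. The GAS letters TTCNNNGAA, the same on both strands, were found in 7 of the 31 members (22.6%) and in 9.55% of all genes. A match describes the letters only.

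The members split sharply between the tissues, and in both directions. In SDLN against SPL cDC1, averaged over the genotype labels, 17 of 35 measured members were higher and 11 lower (limma, Benjamini-Hochberg adjusted p under 0.05 over all 19938 genes), and 7 were not called. Of all genes, 18.6% were called higher and 18.3% lower, or 37% in either direction, against 28 of 35 members (80%). The median log2 difference of the members was 0.22, and that of all genes 0.05, while single members ran between -3.06 for Ifi205 and 2.12 for Herc6. Complete separation of the 6 SDLN from the 6 SPL arrays was seen for 14 members on the high side (12.1% of all genes) and 9 on the low side (13.7%). In bulk RNA, fewer cells expressing a gene and less RNA per cell cannot be told apart.

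**Figure D1:**
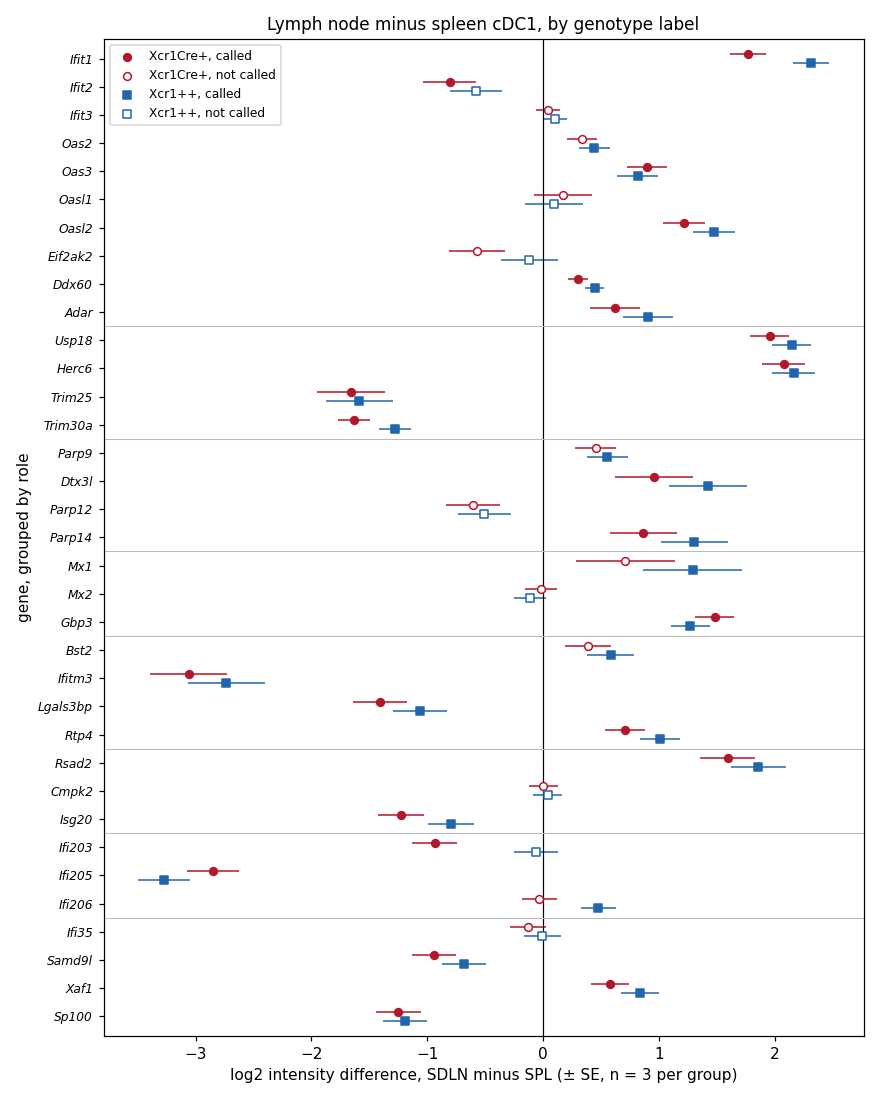
Log2 difference in intensity between SDLN and SPL arrays (horizontal axis) for the 35 measured genes, grouped by role (vertical axis), with circles for the arrays labelled Xcr1Cre+, squares for those labelled Xcr1++, filled where the gene passed the adjusted test, and bars of 1 standard error. Herc6, Ifit1 and Usp18 lie farthest right, near 2, and Ifi205 and Ifitm3 farthest left, near -3, with both labels on the same side.

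RNA sensors, binders and editors were mostly higher in SDLN cells, with 6 of 10 higher, 1 lower and 3 not called. Ifit1 (probe set 10462623), which binds viral RNA that lacks the host cap methylation, had intensities of 102 to 207 (median 145) on the 6 SDLN arrays, against 31.0 to 42.3 (median 33.6) on the 6 SPL arrays. The tissues did not overlap, and the log2 difference was 2.04 (SE 0.11, limma adjusted p = 3.33e-09), or 4.12-fold. Oasl2, a mouse oligoadenylate synthetase-like protein, had 278 to 483 (median 317) in SDLN and 114 to 151 (median 140) in SPL, a log2 difference of 1.35 (SE 0.13, limma adjusted p = 1.29e-06). Oas3, an oligoadenylate synthetase whose product activates RNase L, had 79.3 to 141 (median 105) against 49.5 to 65.5 (median 57.1), a log2 difference of 0.86 (SE 0.12). The tissues did not overlap for any of these 3. Adar, which edits adenosine to inosine in RNA, Oas2 and the helicase Ddx60 were higher by 0.76, 0.39 and 0.37 on the log2 scale. Ddx60 was dim, at 20.3 to 33.0 on all arrays, and some SPL arrays lay at or under the background of 22.2 given by Y-linked genes, so its difference is a low-level one. Ifit1 on the SPL arrays was above that background but not far from it, so its fold is approximate. The background is the highest intensity of 3 Y-linked genes, and takes the cells to be female (Xist at 2522 to 3721). Between 85.8% and 90.3% of all genes lay above it on an array, so lying above it does not by itself show expression. Ifit2 went the other way, at 31.3 to 47.6 (median 36.7) in SDLN and 43.9 to 85.6 (median 60.5) in SPL, with overlapping tissues and a log2 difference of -0.69 (SE 0.16, limma adjusted p = 0.00299).

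Close relatives with neighbouring genes thus differed. Ifit2 and Ifit3 lie next to each other, 3 or 4 genes from Ifit1 on chromosome 19, and their log2 differences between tissues were -0.69 for Ifit2, 0.07 for Ifit3 and 2.04 for Ifit1. Ifit3 (SE 0.07, limma adjusted p = 0.503) had 75.7 to 94.9 in SDLN and 72.1 to 90.9 in SPL. Oasl1, which in mice holds back translation of Irf7, is the neighbour of Oasl2 and had a log2 difference of 0.13 (SE 0.18, limma adjusted p = 0.604). Eif2ak2, the kinase PKR that stops translation on sensing RNA, had -0.34 (SE 0.17, limma adjusted p = 0.142). With the replicate number as a block, Eif2ak2 passed the test (limma adjusted p = 0.0202).

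The enzymes around ISG15, a ubiquitin-like protein attached to other proteins, and the ubiquitin ligases diverged. Herc6, the main ISG15 ligase in mice, had 1061 to 1718 (median 1333) in SDLN and 260 to 335 (median 302) in SPL. Usp18, which removes ISG15 and restrains the type I interferon receptor, had 1227 to 1667 (median 1348) against 279 to 385 (median 332). Every SDLN array lay above every SPL array for both genes, with log2 differences of 2.12 for Herc6 (SE 0.13, limma adjusted p = 1.23e-08), or 4.35-fold, and 2.05 for Usp18 (SE 0.12, limma adjusted p = 5.79e-09), or 4.14-fold. Trim25, a ubiquitin ligase acting on the RNA sensor RIG-I, had 184 to 534 (median 335) in SDLN and 927 to 1171 (median 1015) in SPL, a log2 difference of -1.62 (SE 0.21, limma adjusted p = 1.85e-05). Trim30a, a mouse ligase that dampens Toll-like receptor signalling, fell by 1.46 on the log2 scale (SE 0.10, limma adjusted p = 2.91e-08), with 870 to 1210 in SDLN and 2480 to 3117 in SPL. Thus 2 of the 4 measured members of this group were higher and 2 lower, none with overlapping tissues.

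Of the ADP-ribosylation group, 3 of 4 were higher in SDLN. Dtx3l, a ubiquitin ligase that works in a complex with Parp9, had 545 to 1081 (median 995) in SDLN and 202 to 510 (median 426) in SPL, a log2 difference of 1.19 (SE 0.24, limma adjusted p = 0.00100). Parp14, a mono-ADP-ribosyl transferase, had 263 to 615 (median 445) against 158 to 245 (median 185), a difference of 1.09 (SE 0.21, limma adjusted p = 0.000668), and Parp9 one of 0.50 (SE 0.13). Parp9, Dtx3l and Parp14 are neighbours on chromosome 16. Parp12, which is not part of that cluster, had 451 to 867 (median 782) in SDLN and 913 to 1238 (median 1021) in SPL, a difference of -0.56 (SE 0.16, limma adjusted p = 0.0145). The within-group spread of Dtx3l was among the largest of all members, with a pooled SD of 0.50 on the log2 scale.

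Among the GTPases, Gbp3, a guanylate-binding protein induced mainly by interferon gamma, had 113 to 183 (median 160) in SDLN and 50.1 to 69.1 (median 60.4) in SPL, a log2 difference of 1.38 (SE 0.12, limma adjusted p = 4.41e-07). Mx1, a dynamin-like GTPase of which C57BL/6 mice carry a defective allele, had 286 to 693 (median 587) against 120 to 383 (median 268), so the tissues overlapped. Its difference was 1.0 (SE 0.30, limma adjusted p = 0.0171), and its pooled SD of 0.65 was the largest among the members. Mx2 was not called, at -0.07 (SE 0.10).

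The membrane and secreted factors held the member with the second-largest fall. Ifitm3, which blocks virus fusion at endosomes, had 214 to 634 (median 517) in SDLN and 2744 to 4599 (median 3286) in SPL, a log2 difference of -2.90 (SE 0.24, limma adjusted p = 2.09e-07), or 7.45-fold lower. Lgals3bp, a secreted glycoprotein that binds galectins, had 266 to 446 (median 350) against 672 to 1005 (median 829), a difference of -1.23 (SE 0.16, limma adjusted p = 2.88e-05). Rtp4, a chaperone of receptors on their way to the membrane, went the other way, with 51.6 to 108 (median 72.8) against 34.8 to 44.1 (median 40.9) and a difference of 0.86 (SE 0.12, limma adjusted p = 5.85e-05). Bst2 (tetherin), which holds budding virus at the cell surface and is also a plasmacytoid dendritic cell marker, was higher by 0.49 (SE 0.14, limma adjusted p = 0.0151) with 1952 to 2929 in SDLN and 1403 to 2133 in SPL, and its tissues overlapped.

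Rsad2 (viperin), which makes a chain-terminating nucleotide, had 384 to 754 (median 473) in SDLN and 115 to 226 (median 146) in SPL, a log2 difference of 1.73 (SE 0.17, limma adjusted p = 1.39e-06), or 3.31-fold. Its neighbour on chromosome 12, the mitochondrial nucleotide kinase Cmpk2, had 35.5 to 46.8 against 33.0 to 45.5 and a difference of 0.02 (SE 0.09, limma adjusted p = 0.889). Isg20, an exonuclease that degrades RNA, had 112 to 155 (median 127) in SDLN and 217 to 387 (median 230) in SPL, a difference of -1.01 (SE 0.14, limma adjusted p = 4.58e-05).

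In the IFI200 family of interferon-inducible proteins, 2 of 3 members were lower in SDLN cells with the labels averaged, and none higher. Ifi205 had 287 to 652 (median 406) in SDLN and 3074 to 3691 (median 3348) in SPL, a log2 difference of -3.06 (SE 0.16, limma adjusted p = 2.33e-09), or 8.35-fold lower. Ifi203 had 122 to 179 (median 139) against 138 to 337 (median 207), with overlapping tissues and a difference of -0.50 (SE 0.14, limma adjusted p = 0.00946). For Ifi203 the difference was -0.94 on the Xcr1Cre+ arrays and -0.06 on the Xcr1++ arrays, so the average rests on the arrays labelled Xcr1Cre+. Ifi206, a dim gene at 22.8 to 43.4 on all arrays, was not called (0.22, SE 0.11). These genes belong to a family of close copies on chromosome 1, so cross-hybridisation between them was not tested here.

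Of the other effectors, Sp100, a component of nuclear bodies, had 535 to 894 (median 746) in SDLN and 1400 to 1945 (median 1671) in SPL, a log2 difference of -1.22 (SE 0.14, limma adjusted p = 5.10e-06). Samd9l, a restriction factor that limits growth of infected cells, had 519 to 763 (median 631) against 956 to 1438 (median 1024), a difference of -0.81 (SE 0.13, limma adjusted p = 0.000198). Xaf1, a partner of the apoptosis inhibitor XIAP, was higher, with 96.1 to 153 (median 106) against 64.5 to 78.8 (median 67.8) and a difference of 0.71 (SE 0.12, limma adjusted p = 0.000188). Ifi35 was not called (-0.07, SE 0.11).

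**Figure D2:**
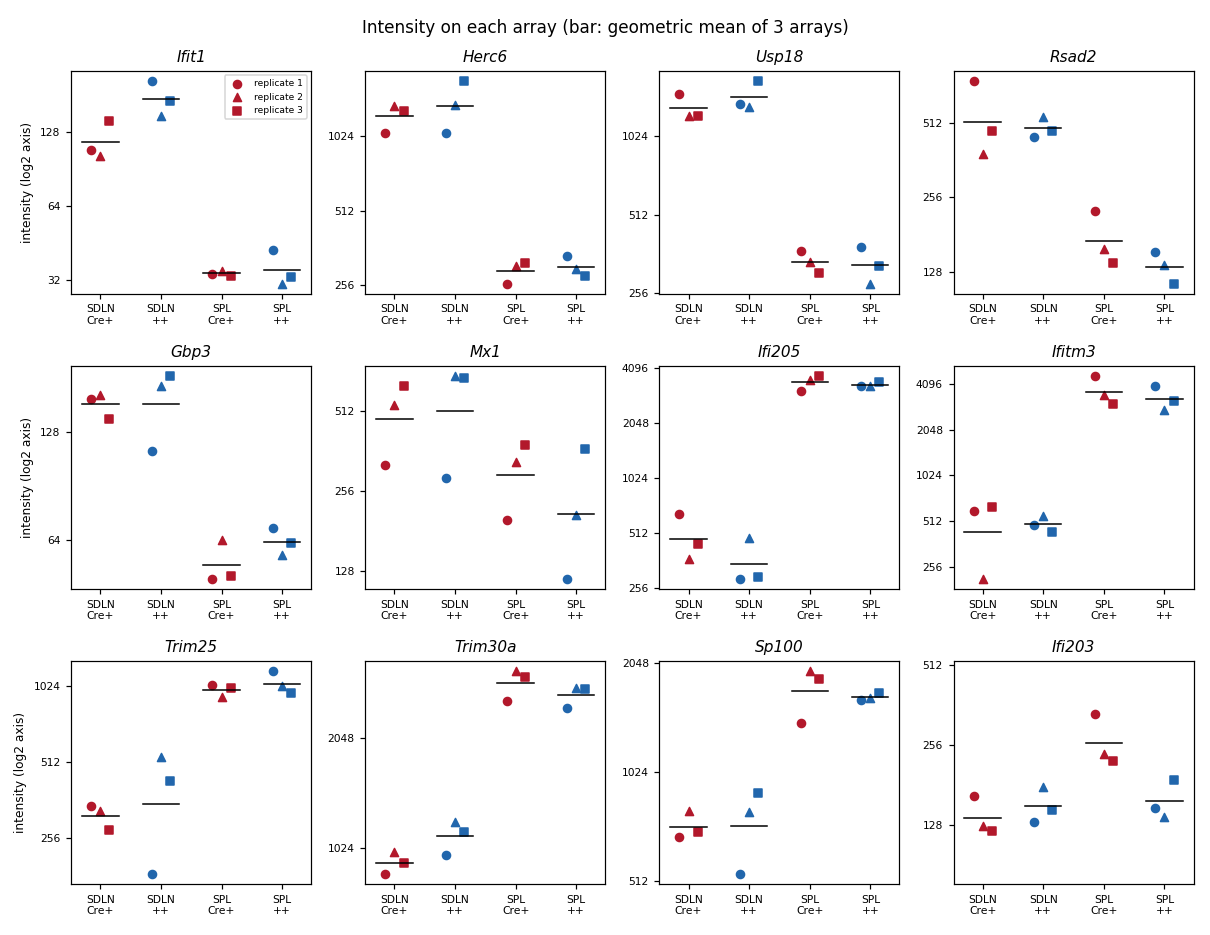
Intensity on each of the 12 arrays for selected genes, on a log2 axis, with 1 panel a gene, the groups in the order SDLN Xcr1Cre+, SDLN Xcr1++, SPL Xcr1Cre+ and SPL Xcr1++, and a bar at the geometric mean of the 3 arrays. Ifit1 lies at 102 to 207 on all SDLN arrays and at 31.0 to 42.3 on all SPL arrays.

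The tissue difference was then taken within each genotype label. On the arrays labelled Xcr1Cre+, 13 members were higher (13.1% of all genes) and 10 lower (15.2%). On the arrays labelled Xcr1++, 18 were higher (12.9%) and 8 lower (13.2%). Called with both labels were 13 higher members (Ifit1, Oas3, Oasl2, Ddx60, Adar, Usp18, Herc6, Dtx3l, Parp14, Gbp3, Rtp4, Rsad2 and Xaf1) and 8 lower ones (Trim25, Trim30a, Ifitm3, Lgals3bp, Isg20, Ifi205, Samd9l and Sp100), and no member was called in opposite directions. On the Xcr1Cre+ arrays the call was lost under 12 of 23 alternatives for Adar, 11 of 23 for Dtx3l, 7 of 23 for Parp14, 4 of 22 for Ddx60, 4 of 23 for Xaf1, and 1 each for Rtp4 and Samd9l. On the Xcr1++ arrays, Samd9l lost its call under 4 of 23, and Oas3, Ddx60, Adar, Dtx3l, Parp14, Lgals3bp and Isg20 under 1 or 2. The sign was the same for 34 of 35 members, Ifi206 being the exception. Ifit2 and Ifi203 passed on the Xcr1Cre+ arrays and not on the Xcr1++ arrays, and Oas2, Parp9, Mx1, Bst2 and Ifi206 on the Xcr1++ arrays and not on the Xcr1Cre+ arrays. The tests of the difference between labels, given below as the interaction, called none of them. Without the SPL Xcr1Cre+ array of replicate 3, 8 members in place of 13 were called higher on the Xcr1Cre+ arrays. Over all genes, the number called on those arrays also moved when 1 array was left out, between 4543 and 6101, against 5648 with all arrays.

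Genes that make, sense and transmit interferon were looked at beside the effectors, as a list of 40 measured genes. Between the tissues, 14 of the 40 were higher in SDLN (18.6% of all genes) and 12 lower (18.3%), with a median of 0.11 on the log2 scale. The interferon genes themselves were near background, with Ifnb1 at 29.0 to 41.1 and Ifna4 at 18.1 to 24.3 over all arrays, and neither was called. Of the receptor chains, Ifngr1, which binds interferon gamma, had 341 to 507 in SDLN and 2987 to 6269 in SPL, a log2 difference of -3.54 (SE 0.20, limma adjusted p = 5.83e-09). Of the sensors, Tlr3, the endosomal receptor for double-stranded RNA, had 75.0 to 104 against 1653 to 3145, a difference of -4.63 (SE 0.16, limma adjusted p = 5.92e-11), while Ddx58, which encodes RIG-I, was higher by 1.39 (SE 0.15, limma adjusted p = 3.91e-06) and Dhx58, its relative LGP2, lower (-1.23, SE 0.16). The adaptor Myd88 was lower (-1.58, SE 0.15). Of the transcription factors, Irf1 had 1239 to 2236 in SDLN and 207 to 291 in SPL, a difference of 2.85 (SE 0.16, limma adjusted p = 3.94e-09), and Irf7, the amplifier of type I interferon production, had 168 to 350 against 873 to 1079, a difference of -2.13 (SE 0.12, limma adjusted p = 4.90e-09). Pias1, a SUMO ligase that restrains interferon signalling, was higher by 1.28 (SE 0.10). Effectors and upstream genes both contained calls in each direction, as did the genes as a whole.

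No member passed the test between genotype labels. In the lymph node, 0 of 35 members and 0 of 19938 genes were called (limma; 0% of all genes), and the smallest adjusted p of a member was 0.9997. At an unadjusted p under 0.05, limma gave 4 members, all lower on the Xcr1Cre+ arrays, against 1.09% of all genes in that direction. The median of the members was -0.15 and that of all genes -0.01 on the log2 scale, and 30 of 35 members lay below 0, as did 54.9% of all genes. Members are not independent of each other, so the count is a description of these 6 arrays.

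Ifit1 had 108, 102 and 141 on the SDLN Xcr1Cre+ arrays and 207, 149 and 171 on the SDLN Xcr1++ arrays, so the labels did not overlap. Its log2 difference was -0.58 (SE 0.16, limma unadjusted p = 0.00230). Ddx60 had 29.0, 27.0 and 25.5 against 31.3, 32.4 and 33.0, again without overlap, close to background (-0.25, SE 0.08, limma unadjusted p = 0.0114). Ifi206 had 32.0, 27.1 and 24.4 against 29.1, 43.4 and 42.0, with overlap (-0.44, SE 0.15, limma unadjusted p = 0.0129). Rtp4 had 62.6, 51.6 and 79.1 against 66.5, 83.9 and 108, also with overlap (-0.41, SE 0.17, limma unadjusted p = 0.0333). In all, 4 members lay lower without overlap (Ddx60, Ifit1, Ifit3 and Isg20), against 2.71% of all genes, and none higher, against 2.01%.

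The members with the largest positive values in the lymph node were Ifi205, Mx2, Rsad2 and Cmpk2. Ifi205 had 652, 367 and 444 on the Xcr1Cre+ arrays and 287, 479 and 295 on the Xcr1++ arrays, with overlapping labels and a log2 difference of 0.47 (SE 0.22, limma unadjusted p = 0.0580). The differences of Mx2, Rsad2 and Cmpk2 were 0.09, 0.09 and 0.07.

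Among the upstream genes, the largest lymph node difference was that of Irf7, which itself is interferon-induced. Irf7 had 168, 174 and 170 on the SDLN Xcr1Cre+ arrays and 216, 278 and 350 on the SDLN Xcr1++ arrays, without overlap, a log2 difference of -0.69 (SE 0.17, limma unadjusted p = 0.00116, adjusted p = 0.9997). The interferon lambda receptor Ifnlr1 had -0.25 (SE 0.09), Ddx58 -0.52 (SE 0.21) and the signalling inhibitor Socs1 -0.35 (SE 0.16), which with Irf7 made up the 4 of 40 listed genes at an unadjusted p under 0.05. All 4 were lower, against 1.09% of all genes in that direction, and 0 of the 40 passed the adjusted test in limma.

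The lymph node shift was not the same in the 3 same-numbered pairs of arrays. The median log2 difference of the 35 members was 0.09 in pair 1, -0.17 in pair 2 and -0.36 in pair 3, and 13, 32 and 31 members were lower on the Xcr1Cre+ array. The number 3 pair is the one in which Cd40 went against the labels. On the SDLN Xcr1++ array of replicate 1, 4 of 35 members lay above the mean of their group, with a median deviation of -0.31, while the other 11 arrays had median deviations of -0.09 to 0.21. The median difference was -0.27 without that array, -0.03 without the SDLN Xcr1++ array of replicate 3 and -0.07 without all arrays of number 3. Over pairs 1 and 2 alone, 22 of 35 members were lower on average, as were 57.1% of all genes, against the 30 of 35 over all 3 pairs. All 3 pairs were lower for 12 members (Ifit1, Ifit3, Oasl1, Ddx60, Adar, Herc6, Trim30a, Parp14, Lgals3bp, Rtp4, Isg20 and Ifi35), against 14.7% of all genes, and higher for none, against 10.5%. These counts hold for the labels as given.

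**Figure D3:**
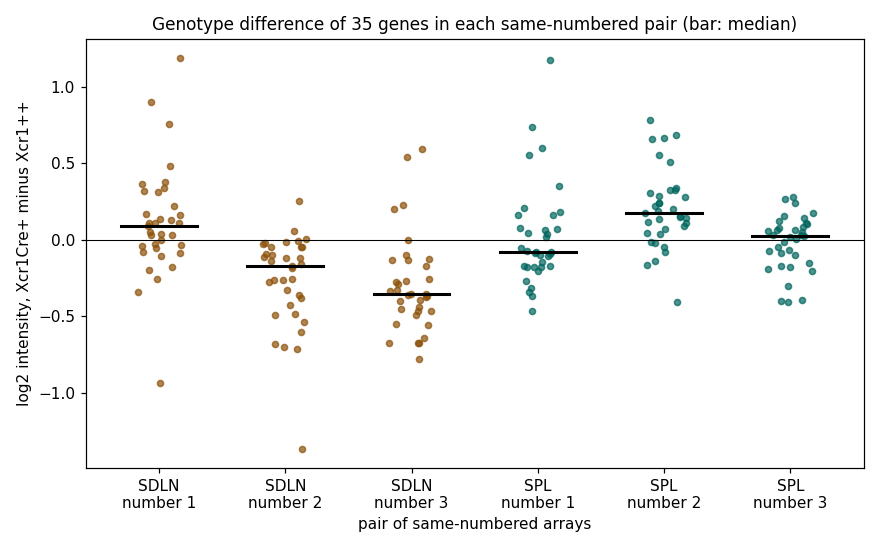
Log2 difference in intensity, Xcr1Cre+ minus Xcr1++ (vertical axis), of the 35 genes in each same-numbered pair of arrays in the lymph node and in spleen (horizontal axis), with a point for each gene and a bar at the median. The lymph node medians are 0.09, -0.17 and -0.36 for numbers 1, 2 and 3, and those of spleen -0.08, 0.18 and 0.03.

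In spleen, too, 0 of 35 members and 0 of all genes were called between labels (limma; 0% of all genes), with a smallest member adjusted p of 0.9998. At an unadjusted p under 0.05, limma gave 1 member, against 1.79% of all genes. The median of the members was 0.07 and that of all genes -0.01, and 22 of 35 members lay above 0, as did 45.9% of all genes. Ifi203, the member concerned, had 337, 238 and 224 on the SPL Xcr1Cre+ arrays and 149, 138 and 190 on the SPL Xcr1++ arrays, without overlap, a log2 difference of 0.73 (SE 0.19, limma unadjusted p = 0.00204). Rsad2 followed on the high side, with 226, 158 and 139 against 154, 136 and 115 and overlapping labels (0.35, SE 0.24). Mx1 (0.48, SE 0.43) and Dtx3l (0.36, SE 0.34) had standard errors nearly as large as their differences. With the replicate number as a block, the standard errors were 0.15 for Mx1 and 0.11 for Dtx3l (limma unadjusted p = 0.00771 and 0.00667, adjusted p = 0.983 for both). On the low side, Oas3 had 50.0, 56.1 and 49.5 against 60.3, 58.0 and 65.5, without overlap (-0.24, SE 0.18), and Oasl1 298, 276 and 302 against 314, 365 and 397, also without overlap (-0.29, SE 0.25). Gbp3 had -0.21 (SE 0.17) and Ifit3 -0.12 (SE 0.10). Labels did not overlap for 3 members on the high side (Ifi203, Parp12 and Xaf1), against 2.68% of all genes, and for 2 on the low side, against 4.96%. All 3 same-numbered pairs were higher on the Xcr1Cre+ array for 10 members (Adar, Trim30a, Dtx3l, Parp12, Mx1, Lgals3bp, Rsad2, Isg20, Ifi203 and Xaf1), against 12.8% of all genes, and lower for 4 (Ifit3, Oas3, Oasl1 and Ddx60), against 17.1%. The pair medians were -0.08, 0.18 and 0.03, and the median was -0.01 without the SPL Xcr1Cre+ array of replicate 2. Of the upstream genes, Tlr9 (0.32, SE 0.15), Socs3 (-0.26, SE 0.13) and Irf2 (0.29, SE 0.15) came closest, and none reached an unadjusted p under 0.05.

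**Figure D4:**
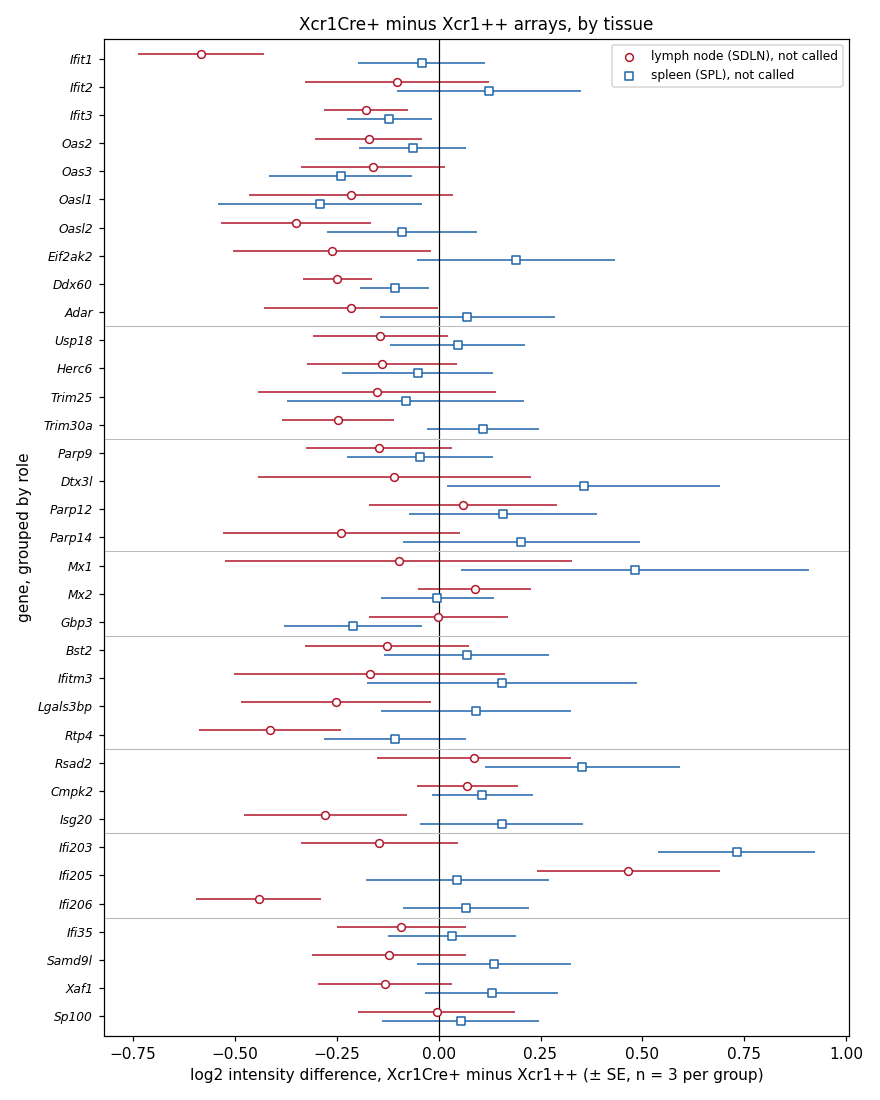
Log2 difference in intensity between arrays labelled Xcr1Cre+ and Xcr1++ (horizontal axis) for the 35 genes grouped by role (vertical axis), with 1 symbol for the lymph node, 1 for spleen, and bars of 1 standard error. Ifi203 in spleen (0.73) and Ifit1 in the lymph node (-0.58) lie farthest from 0, and no gene passed the adjusted test.

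Averaged over the tissues, limma called 0 members and 0 genes between labels (0% of all genes), with 3 members at an unadjusted p under 0.05, against 1.92% of all genes. These were Ddx60 (-0.18, SE 0.06, limma unadjusted p = 0.0105), Ifit1 (-0.31, SE 0.11, limma unadjusted p = 0.0136) and Ifi203 (0.29, SE 0.14, limma unadjusted p = 0.0496). Rtp4 (-0.26, SE 0.12) and Ifit3 (-0.15, SE 0.07) were next on the low side, and Ifi205 (0.26, SE 0.16), Rsad2 (0.22, SE 0.17) and Cmpk2 (0.09, SE 0.09) on the high side. Of the 40 upstream genes, 4 were lower (1.27% of all genes) and 1 higher (0.652%) at an unadjusted p under 0.05 in limma. Ifnlr1 and Cgas, the cytosolic DNA sensor, each had -0.19 (SE 0.07), Irf7 -0.29 (SE 0.12), Socs1 -0.26 (SE 0.11) and Irf2 0.24 (SE 0.11), and none of them passed the adjusted test.

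The genotype difference in the lymph node minus that in spleen, the interaction, was not called for any member or any gene (limma; 0% of all genes, smallest member adjusted p 0.9996). Its median over the members was -0.23, and over all genes -0.0016. Without the SDLN Xcr1++ array of replicate 1 the members' median was -0.38, and without that of replicate 3 it was -0.10. The 3 members at an unadjusted p under 0.05, against 1.64% of all genes, were Ifi203 (-0.88, SE 0.27, limma unadjusted p = 0.00633), Ifit1 (-0.54, SE 0.22, limma unadjusted p = 0.0280) and Ifi206 (-0.51, SE 0.22, limma unadjusted p = 0.0358). For Ifi203 the value combines 165, 128 and 122 on the SDLN Xcr1Cre+ arrays and 132, 179 and 146 on the SDLN Xcr1++ arrays with the spleen values above, so the labels overlapped in the lymph node and not in spleen. Ifit1 had 34.0, 35.0 and 33.2 on the SPL Xcr1Cre+ arrays and 42.3, 31.0 and 32.8 on the SPL Xcr1++ arrays, so its labels overlapped in spleen and not in the lymph node. Its spleen values were about as dim as those of Ifnb1, and Ifi206 was dim in both tissues. A label difference at such levels may be understated, so the size of these 2 interactions is less certain.

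The same-numbered arrays varied together, most clearly those of number 1, so the replicate number was also fitted as a block. With the replicate block, limma still called 0 members and 0 genes between labels in either tissue, averaged or as an interaction. At an unadjusted p under 0.05 the block gave 6 members in the lymph node (6.82% of all genes), 5 of them lower (4.22%) and 1 higher (2.6%). In spleen it gave 3 (4.44%), all higher (1.91%). Averaged over tissues it gave 5 (5.34%), 4 of them lower (3.37%) and 1 higher (1.97%). For the interaction it gave 6 (5.74%), all lower (3.25%). With arrays weighted by their own variability, limma called Ifi203 in spleen (0.65, adjusted p = 0.0416) and Ifi206 in the lymph node (-0.73, adjusted p = 0.0312), the only members called between labels under any alternative in a single tissue.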

How the data were processed

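RNA of the 12 sorted samples was hybridised to Affymetrix arrays after WT Pico labelling, per the labels' protocols. The authors' deposited intensity values, 1 per probe set and array, came from the RMA method; the submitters' processing notes name it together with Affymetrix Expression Console, and versions were not given in the sources used here. The values are linear (8.23 to 20398, array medians 66.1 to 74.4), so log2 was taken and no further scaling applied. Of 28853 probe sets, 21789 had 1 symbol, 1621 several and 5443 were unlisted in the platform annotation; 21698 of the single-symbol probe sets matched RefSeq by Entrez number. The brightest probe set was kept for each of the 999 genes with more than 1, leaving 19938. No member had more than 1 single-symbol probe set. Only differences within a probe set were compared, and the 3 arrays of a group limit the precision.

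Means of the 4 groups were fitted with limma 3.58.1 (R 4.3.3; eBayes with a trend), with Benjamini-Hochberg adjustment over all genes and a threshold of 0.05; the fit was first tested on simulated data. Same-numbered arrays deviated from their group means together (r of 0.573 to 0.729 for number 1, 0.309 to 0.449 for 2 and 0.293 to 0.466 for 3). Between numbers r ran from -0.633 to 0.557 (median -0.449), which overlaps the values of numbers 2 and 3. Deviations from a mean of 3 arrays by themselves push r between numbers below 0. The replicate number was taken to pair arrays, a pairing read from the data, clearest for number 1, and not stated in the labels. Alternatives were the replicate block, no trend, quantile scaling, only genes above the median level, the mean of probe sets, array weights, the 2 compared groups alone, and leaving out arrays or all arrays of 1 number. The members, gene lists and tests were chosen with earlier results of these data known. Genes were named by a rule: per role, up to 3 called members with the largest tissue difference, and in the genotype comparisons the members with the lowest p in each direction. The remaining members stand beside them, so that every measured member has a value, and were not picked by the rule.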

Additional observations from a re-analysis of the deposited data

Results flagged for a closer look

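For 4 members the genotype difference had opposite signs in the tissues in every same-numbered pair of arrays: lower on the Xcr1Cre+ array in all 3 lymph node pairs and higher in all 3 spleen pairs. This was so for 4 of 35 members and for 2.1% of all genes, and the reverse for no member and 1.86% of all genes. The log2 difference in the lymph node minus that in spleen was -0.29 for the RNA editor Adar, -0.36 for Trim30a, -0.34 for Lgals3bp and -0.43 for Isg20. The difference between the tissues was tested as an interaction in limma and passed for none of them, with unadjusted p of 0.363, 0.0890, 0.315 and 0.149. With the replicate block, which takes the pairs into account, limma gave unadjusted p of 0.0705 for Adar, 0.00424 for Trim30a, 0.0770 for Lgals3bp and 0.0985 for Isg20, and the smallest adjusted p of the 4 was 0.838. The 4 members were picked by the signs of these same pairs, which favours small values of p. These p-values are therefore no separate evidence for the pattern. Cd40 went against the labels in the pair numbered 3 of both tissues, and the part of this in the 4 values was not tested.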

How the results depend on the processing

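Of the 28 members called between tissues with the labels averaged, 22 were called under every alternative in which they were tested. Oas2, Parp9, Parp12, Mx1, Bst2 and Ifi203 were lost under at least 1, and Oasl1, Eif2ak2 and Ifi206 were gained under at least 1. With the replicate block, 17 members were higher and 12 lower in that comparison. At an unadjusted p under 0.05 the block in limma gave the same counts, against 29.7% of all genes higher and 23.6% lower. The block also added Ifit2 and Parp12 on the Xcr1++ arrays and Oas2, Eif2ak2, Parp9, Parp12, Mx1 and Bst2 on the Xcr1Cre+ arrays, and changed no other call of a member. With array weights, genes called were 8933 on the Xcr1Cre+ arrays and 9020 on the Xcr1++ arrays between tissues (5648 and 5207 as reported), 2 between labels in the lymph node with 1 member lower, 51 in spleen with 1 member higher, and 3 for the interaction with 1 member lower, Ifi206 (-0.94, limma adjusted p = 0.0288). Without all arrays of number 2, the Xcr1Cre+ arrays gave 3081 genes and 8 higher members between tissues, and the Xcr1++ arrays 3093 and 8. Without those of number 3, they gave 3094 and 8, and 2865 and 10; both settings have fewer arrays. With the replicate block and without number 3, a setting chosen after seeing Cd40, 1 gene and no member was called between labels in the lymph node. Leaving out 1 array at a time gave 8 to 14 higher members on the Xcr1Cre+ arrays between tissues, the lowest without SPL Xcr1Cre+ replicate 3. Over all genes it gave 4543 to 6101 calls on those arrays in either direction, and 0 genes between labels. The median of the members in spleen between labels was -0.01 without SPL Xcr1Cre+ replicate 2. Over the single-gene values, 5303 stayed on their side of the threshold, 110 fell below it and 54 passed it, and none that was called changed sign. Quantile scaling moved the median of all genes by less than 0.1 on the log2 scale. Signal near background limits what can be said of Ddx60 and Ifi206. Cmpk2 in both tissues, Ifit1 and Rtp4 in SPL and Ifit2 in SDLN lay above background, but about as dim as Ifnb1. Mx2 was little brighter in both tissues, at 40.3 to 47.7 in SDLN and 37.5 to 54.4 in SPL. The size of their differences is less certain for that reason.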
